A study of Mus musculus with 12 samples.

Results

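A set of 9 genes of hedgehog, bone morphogenetic protein (BMP) and Wnt signalling was followed in the mouse cecum as postoperative adhesions formed. They were Gas1, Ptch1, Hhip, Gli1, Bmp4, Bmp5, Grem1, Rspo3 and Wnt2b, which is 9 of the 37074 gene names on the array, and they were measured by 18 of its 56605 probes. Every probe whose gene name was one of the 9 was taken. The genes were chosen by a measured value, because the fall of Gas1 from sham to 3 h was among the largest on these arrays, so differences between 3 h and sham are given as a description with no test.

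RNA came from the cecum of C57BL/6 mice, with 3 arrays in each of 4 groups. The control group had a sham operation and was sampled at 0 h, and the other groups were sampled 3, 12 or 72 h after the cecum had been cauterized, a burn to the serosa that leads to adhesions. No genotype or drug differed between the groups, and the ages of the mice were not given in the sources used here. The sham samples were taken at 0 h only, so cauterization and the time since the operation cannot be told apart. All mice were labelled male, but Xist, which is transcribed from the inactive X chromosome, passed the background test on each of the 12 arrays, and Ddx3y and Eif2s3y of the Y chromosome passed it on 0. The label and these genes go against each other in every group. The sham and 3 h arrays and 12 h replicates 1 and 2 lay on the first slide, and 12 h replicate 3 and the 72 h arrays lay on the second, so that 1 array alone links the 72 h group to the rest across slides. The share of probes above background ran from 60.2% to 65.2% per array, and 0 spots were saturated. The number of arrays limits the precision.

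Hedgehog proteins made by the gut epithelium act on the mesenchyme below it. They bind PTCH1, which then no longer holds back Smoothened, and GLI transcription factors switch on target genes that include Gli1, Ptch1 and Hhip themselves. GAS1, CDON and BOC are cell surface co-receptors that help hedgehog to bind. BMPs from the same mesenchyme signal through SMAD proteins and oppose Wnt-driven growth of the crypts, and secreted antagonists such as GREM1 block them. R-spondins, of which RSPO3 is one, strengthen Wnt signals at the crypt base.

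Each array probe is a single strand of 60 bases. Of the probes of these genes, 3 that lie in protein-coding sequence or join exons are shown because probes of 1 gene did not always give the same size of change. None of the 3 is the probe by which its gene was called. Ptch1 probe 3 covers chr13:63644484-63644827 of mm9 on the minus strand and Bmp5 probe 3 covers chr9:75675966-75687359 on the plus strand. They span 344 and 11394 genomic bases, so each joins separate exons. Bmp4 probe 2 covers chr14:47003802-47003861 on the minus strand without a break.

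Ptch1 probe 3: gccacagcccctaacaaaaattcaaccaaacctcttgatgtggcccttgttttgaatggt

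Bmp5 probe 3: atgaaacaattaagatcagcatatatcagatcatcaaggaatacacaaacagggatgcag

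Bmp4 probe 2: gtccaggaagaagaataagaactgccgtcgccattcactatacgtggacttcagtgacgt

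The promoters of Gas1 and Grem1 are shown because these genes had the largest differences from sham among the 9, in opposite directions, and that of Ptch1 because it encodes the hedgehog receptor and lay below sham at each time. Each run holds the 250 bases before the RefSeq start on the minus strand of GRCm38.p6, at chr13:60177536-60177785 for Gas1, chr13:63565736-63565985 for Ptch1 and chr2:113758649-113758898 for Grem1. RefSeq promoters were matched for 7 of the 9 genes, Gli1 and Rspo3 being the others. Capitals mark the letters GGCGCC, which SMAD1 and SMAD5 are known to bind, and CCACCCA, the core of the GLI site GACCACCCA.

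Gas1: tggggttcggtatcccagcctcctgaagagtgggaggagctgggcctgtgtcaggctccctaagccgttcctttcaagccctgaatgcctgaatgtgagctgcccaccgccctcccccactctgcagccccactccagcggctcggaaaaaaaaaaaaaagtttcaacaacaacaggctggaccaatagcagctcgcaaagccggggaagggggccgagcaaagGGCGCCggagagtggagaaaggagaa

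Ptch1: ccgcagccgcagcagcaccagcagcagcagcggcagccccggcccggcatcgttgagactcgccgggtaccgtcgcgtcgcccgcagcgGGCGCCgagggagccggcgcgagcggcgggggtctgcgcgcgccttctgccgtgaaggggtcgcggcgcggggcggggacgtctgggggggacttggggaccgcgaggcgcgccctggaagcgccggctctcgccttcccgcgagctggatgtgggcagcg

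Grem1: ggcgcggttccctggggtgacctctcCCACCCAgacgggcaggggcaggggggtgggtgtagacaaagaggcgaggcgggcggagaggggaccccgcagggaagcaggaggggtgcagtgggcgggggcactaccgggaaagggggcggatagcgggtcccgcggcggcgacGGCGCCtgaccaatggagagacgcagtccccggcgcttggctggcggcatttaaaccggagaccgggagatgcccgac

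Both strands of the whole 300-base windows, which run 50 bases past the start, were searched. The letters GGCGCC, which read the same on both strands, were in the windows of Gas1, Ptch1, Grem1 and Wnt2b and in 11.9% of all 32851 promoters. The core CCACCCA was in those of Grem1 and Bmp5 and in 9.3% of all promoters. The whole site GACCACCCA, which contains that core, was in 0.253% of all promoters and in 0 of the 7 windows. These matches describe the letters only.

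Levels are given as log2 of the background-corrected intensity minus the 75th percentile of the array, so 0 is the 75th percentile and a difference of 1 is a 2-fold change. Each gene is given by its lead probe, the one with the highest mean over the 12 arrays. Except where the rule for choosing the genes forbids a test, differences were tested with limma over all 56605 probes with Benjamini-Hochberg adjustment, and a gene was called at a fold above 2 and an adjusted p below 0.05. Errors of levels are SDs over 3 arrays and errors of differences are SEs. In this bulk tissue, fewer cells of a type and less RNA per cell cannot be told apart.

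Gas1 (NM_008086, 1 probe at chr13:60276217-60276276 of mm9, minus strand) was at 0.24, −0.12 and −0.34 in the sham replicates 1 to 3. The 3 h arrays read −3.04, −3.43 and −3.32, and the 12 h arrays −3.18, −3.68 and −2.34. At 72 h it was at 1.32, 0.47 and 0.10. The 3 h and 12 h arrays therefore overlapped each other and lay far below every sham array, and the 72 h arrays overlapped the sham arrays from above. The group means were −0.07 ± 0.29 in sham, −3.26 ± 0.20 and −3.07 ± 0.68 in the 3 h and 12 h groups, and 0.63 ± 0.63 in the 72 h group (SD, n = 3 each). As a description, the difference from sham was −3.19 for the 3 h group, −2.99 for the 12 h group and 0.71 for the 72 h group. The 3 h difference ranked 5 among the falls of 21278 genes above background on all sham and 3 h arrays. The 72 h and 12 h arrays were not in the contrast that chose Gas1, although the genes were chosen with earlier results of these data known. From 12 to 72 h Gas1 rose by 3.70 ± 0.37 on the log2 scale, or 13.0-fold (limma adjusted p = 0.000305). Within the second slide, which held 1 of the 12 h arrays, the difference was 2.97, and with slide as a block it was 2.97 with an adjusted p of 0.00889. With normexp background correction the rise was smaller, at 2.26 (adjusted p = 0.000139). The 72 h difference from sham changed sign to −0.39 with slide as a block.

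**Figure D1:**
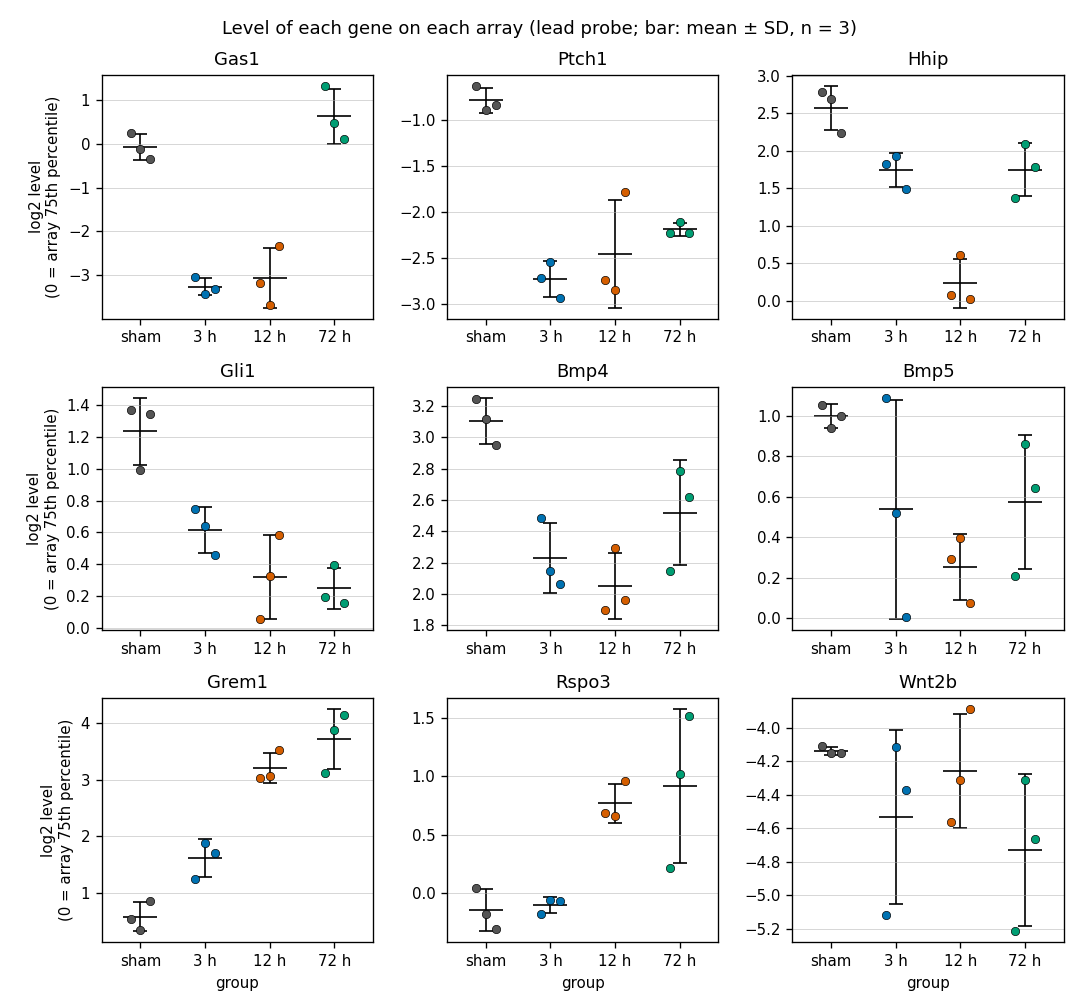
Log2 level of the lead probe of each of the 9 genes on each of the 12 arrays (y axis, 0 is the 75th percentile of the array; x axis, group), with points for replicates 1 to 3 from left to right and bars for the mean ± SD of 3 arrays. Gas1 lies near −3 at 3 and 12 h and above 0 at 72 h, Hhip is lowest at 12 h, Ptch1 and Gli1 stay below sham, and Grem1 is highest at 72 h.

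Among the 3 genes that hedgehog signals switch on, Ptch1, Hhip and Gli1, all had lower mean levels than sham at each time, and their courses were not alike. Ptch1 encodes the receptor. Its lead probe (ENSMUST00000195258, chr13:63638793-63638852, mm9) was at −0.63, −0.89 and −0.84 in sham and the 3 h arrays read −2.71, −2.54 and −2.92. The 12 h arrays read −2.73, −2.84 and −1.78 and the 72 h arrays −2.23, −2.11 and −2.22. No array after cauterization reached the sham range, and the groups after cauterization overlapped in turn. From sham, Ptch1 fell by 1.67 ± 0.24 at 12 h (3.18-fold lower, adjusted p = 0.00106) and by 1.40 ± 0.24 at 72 h (2.64-fold lower, adjusted p = 0.00337), and the 3 h difference, given with no test, was −1.94. Between 12 and 72 h the difference was 0.27 with a 95% interval from −0.27 to 0.81 (adjusted p = 0.47), and within the second slide it was −0.40.

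The other Ptch1 probes gave smaller differences in the same direction. The second probe (NM_008957, chr13:63612907-63612966) differed from sham by −0.89 ± 0.28 at 12 h (adjusted p = 0.0471, fold under 2) and fell by 1.01 ± 0.28 at 72 h (adjusted p = 0.0299). The exon-joining probe printed above differed by −0.80 ± 0.16 at 12 h (adjusted p = 0.00539) and by −0.60 ± 0.16 at 72 h (adjusted p = 0.0236), both under 2-fold. Without 12 h replicate 3, where the lead probe was highest of its group, the 12 h difference of the lead probe was −2.0.

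Hhip encodes a membrane-bound decoy that binds hedgehog proteins and is itself a hedgehog target. Its lead probe (NM_020259, chr8:82489879-82489938, mm9) was at 2.79, 2.69 and 2.24 in sham. At 3 h the arrays read 1.82, 1.93 and 1.49, the 12 h arrays 0.08, 0.61 and 0.02, and the 72 h arrays 1.38, 2.09 and 1.78. The 12 h arrays lay below all others, the 3 h and 72 h arrays overlapped, and the sham arrays lay above all others. From sham, Hhip fell by 2.34 ± 0.23 at 12 h (5.05-fold lower, adjusted p = 0.000139). It then rose by 1.51 ± 0.23 from 12 to 72 h (2.85-fold, adjusted p = 0.00233; 1.73 within the second slide, against 1 array), having fallen by 1.51 ± 0.23 between 3 and 12 h (adjusted p = 0.00536). At 72 h it was still 0.82 ± 0.23 below sham with a fold under 2 (adjusted p = 0.0333), and with slide as a block the adjusted p of that difference was 0.528. Its second probe gave −2.21 at 12 h (adjusted p = 9.74e-05) and 1.21 between 12 and 72 h (adjusted p = 0.0039). At 72 h that probe differed from sham by −0.99 ± 0.21 (adjusted p = 0.00856), also with a fold under 2.

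Gli1, the transcription factor whose RNA is the usual readout of hedgehog signalling, differed from sham by less than 2-fold. Its lead probe (NM_010296, chr10:126766967-126767026, mm9) was at 1.37, 0.99 and 1.34 in sham and the 3 h arrays read 0.75, 0.64 and 0.46. The 12 h arrays read 0.05, 0.33 and 0.58 and the 72 h arrays 0.19, 0.40 and 0.15. Every array after cauterization lay below every sham array, and the groups after cauterization overlapped in turn. The differences from sham were −0.62 at 3 h with no test, −0.92 ± 0.16 at 12 h (adjusted p = 0.00314) and −0.99 ± 0.16 at 72 h (adjusted p = 0.0026), which fall just short of 2-fold. Under 3 of 24 alternative settings at 12 h and 4 of 24 at 72 h the fold passed 2. A second probe (AK157048) was above background on 0 arrays.

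Bmp4 and Bmp5 encode BMP ligands made by the gut mesenchyme. The lead probe of Bmp4 (NM_007554, chr14:47003391-47003450, mm9) was at 3.25, 3.12 and 2.95 in sham and the 3 h arrays read 2.49, 2.15 and 2.07. The 12 h arrays read 1.90, 2.29 and 1.97 and the 72 h arrays 2.14, 2.79 and 2.62. All 9 arrays after cauterization lay below the sham arrays, and their 3 groups overlapped each other. From sham, Bmp4 fell by 1.05 ± 0.19 at 12 h (2.07-fold lower, adjusted p = 0.00349), and the printed coding probe gave the same −1.05 (adjusted p = 0.00805). The call rested on a difference near 2-fold and was lost under 4 of 24 alternatives, among them the fits without sham replicate 1 (−0.98, adjusted p = 0.0176) and without 12 h replicate 1 (−0.97, adjusted p = 0.0166). At 72 h the difference was −0.59, with a 95% interval from −1.01 to −0.16 (adjusted p = 0.056), and at 3 h it was −0.87 with no test.

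The lead probe of Bmp5 (ENSMUST00000012281, chr9:75747841-75747900, mm9) was at 1.06, 0.94 and 1.0 in sham. Those at 3 h read 1.09, 0.52 and 0.00, the 12 h arrays 0.29, 0.40 and 0.08, and the 72 h arrays 0.21, 0.86 and 0.65. The 3 h arrays spread from above the sham range to far below it, and the 12 h and 72 h arrays lay below sham. None of its differences passed the test. At 12 h the difference was −0.74, with a 95% interval from −1.31 to −0.18 (adjusted p = 0.0634), and at 72 h it was −0.43, from −0.99 to 0.14 (adjusted p = 0.28). Probes 2 and 3, the latter printed above, gave −0.62 and −0.82 at 12 h with adjusted p-values of 0.251 and 0.0884. The fourth (AK079078), on the opposite strand, was above background on 0 arrays.

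Grem1, the secreted antagonist that binds BMP2 and BMP4, rose from sham to 12 h and stayed above sham at 72 h. It has 1 probe (NM_011824, chr2:113589227-113589286, mm9), which was at 0.52, 0.34 and 0.85 in sham. At 3 h the arrays read 1.24, 1.89 and 1.71, the 12 h arrays 3.03, 3.07 and 3.52, and the 72 h arrays 3.12, 3.88 and 4.14. The arrays of sham, 3 h and 12 h did not overlap and stood in that order, and those of 12 and 72 h overlapped. From sham, Grem1 rose by 2.64 ± 0.28 at 12 h (6.21-fold, adjusted p = 0.000173) and by 3.14 ± 0.28 at 72 h (8.83-fold, adjusted p = 8.17e-05). It rose by 1.59 ± 0.28 between 3 and 12 h (adjusted p = 0.00864), and the difference between 12 and 72 h was 0.51 with a 95% interval from −0.11 to 1.12 (adjusted p = 0.245). The 3 h difference was 1.04 with no test. With slide as a block the 72 h difference was 2.67 (adjusted p = 0.0255), and within the first slide the 12 h difference was 2.48.

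Rspo3 encodes an R-spondin made by stromal and lymphatic cells of the gut. Its lead probe (NM_028351, chr10:29172930-29172989, mm9) was at 0.05, −0.18 and −0.31 in sham. The 3 h arrays read −0.18, −0.06 and −0.07, the 12 h arrays 0.69, 0.66 and 0.96, and the 72 h arrays 0.21, 1.02 and 1.52. The sham and 3 h arrays overlapped, and all 12 h and 72 h arrays lay above both. From sham, Rspo3 rose by 1.06 ± 0.27 at 72 h (2.09-fold, adjusted p = 0.0199), a call lost under 9 of 24 alternatives. These included slide as a block (0.78, adjusted p = 0.388) and leaving out sham replicate 2 or 3 or 72 h replicate 2 or 3, where the difference lay between 0.76 and 1.05. At 12 h the difference was 0.91 ± 0.27 (adjusted p = 0.0357) with a fold under 2. The second probe (AK076308) was not well above background on any sham or 3 h array and was so on 3 arrays at 12 h and 2 at 72 h, at least 1.88-fold higher at 12 h than in sham (adjusted p = 0.0516). A bound of this kind sets the mean of the brighter group against the lowest level still well above background on each array of the dimmer group.

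Wnt2b encodes a canonical Wnt ligand of the gut mesenchyme. Its probe (NM_009520, chr3:104748831-104748890, mm9) was dim, at −4.11, −4.15 and −4.15 in sham. At 3 h the arrays read −5.11, −4.11 and −4.37, the 12 h arrays −4.56, −4.31 and −3.89, and the 72 h arrays −5.21, −4.31 and −4.67. It was well above background on 3, 2, 3 and 2 of the arrays of the 4 groups in that order. The groups overlapped widely except for sham and 72 h. The differences from sham were −0.12 at 12 h, with a 95% interval from −0.77 to 0.53 (adjusted p = 0.872), and −0.59 at 72 h, from −1.24 to 0.05 (adjusted p = 0.19).

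**Figure D2:**
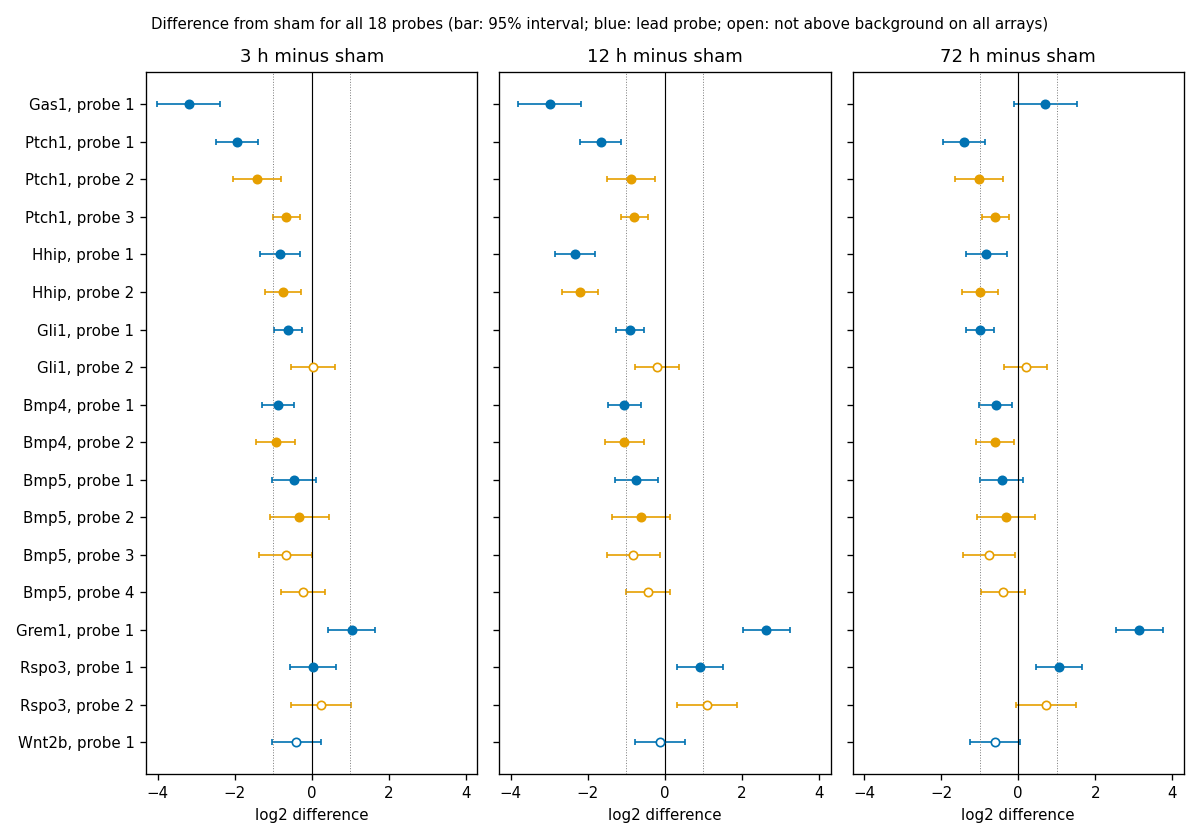
Log2 difference from sham (x axis) of all 18 probes of the 9 genes (y axis) at 3, 12 and 72 h, with the 95% interval of the fit over 12 arrays, blue for lead probes, orange for the others and open circles for probes not above background on all 12 arrays. The probes of Hhip and of Bmp4 lie close together, and those of Ptch1 spread from −1.67 to −0.80 at 12 h. The 3 h panel, and the Gas1 intervals at 12 and 72 h, are a description only, since they share arrays with the contrast that chose Gas1.

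Of the 8 genes tested against sham at 12 h, 4 were called, Ptch1, Hhip and Bmp4 lower and Grem1 higher, where 9.06% of all 37074 genes were called. All 9 genes were above background on every array of at least 1 group, as were 23848 of the 37074. Shares over all genes therefore include dimmer genes. At 72 h, 3 of the 8 were called, Grem1 and Rspo3 higher and Ptch1 lower, beside 8.85% of all genes. Without the fold threshold, 6 of the 8 passed the adjusted p at 12 h and 5 at 72 h, beside 21.2% and 20.7% of all genes. The arrays did not overlap with sham for 7 of the 8 at 12 h and for 8 of the 8 at 72 h, where 36.2% and 37.5% of all genes had no overlap. Both comparisons share the sham arrays, which also took part in choosing the genes. Between 12 and 72 h, 2 of 9 were called, Gas1 and Hhip, both higher, beside 7.52% of all genes, and these were the 2 without overlap, beside 38.5%. Between 3 and 12 h, where Gas1 was not tested, 2 of 8 were called, Grem1 higher and Hhip lower, beside 3.46%, and these and Rspo3 were the 3 without overlap, beside 29.5%. The median difference over all probes was −0.15 at 72 h against sham and −0.14 at 72 h against 12 h, and the other differences are to be read against a median between −0.11 and 0.06. With normexp background correction, 2 genes were called at 12 h and 1 at 72 h against sham, with Ptch1 and Bmp4 at 12 h and Ptch1 and Rspo3 at 72 h keeping an adjusted p below 0.05 at a fold under 2. Calls over all genes fell too. They were 825 higher and 502 lower at 12 h, from 3360 in all, and 870 and 388 at 72 h, from 3282.

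The other genes of these pathways, 121 in 11 lists, were called by the same rule. Of these, 103 were above background on all arrays of at least 1 group, beside 23848 of all 37074 genes. The shares over all genes therefore include more dim genes. At 12 h, 22 of the 121 were called against sham, 2 higher and 20 lower, which is 1.65% and 16.5% beside 4.1% and 4.96% of all genes. Their median difference was −0.36, and that of all genes −0.01. The larger number of lower calls depended on the background correction, since normexp gave 2 higher and 3 lower of the 121 at 12 h, and 825 and 502 over all genes. At 72 h, 19 were called, 13 higher and 6 lower, or 10.7% and 4.96% beside 4.55% and 4.3% of all genes, with medians of 0.00 and −0.14. Quantile scaling gave 14 higher and 3 lower there, and 1851 and 1098 over all genes, and normexp gave 7 higher and 0 lower, and 870 and 388 over all genes. From 12 to 72 h, 27 were called, 25 higher and 2 lower, or 20.7% and 1.65% beside 4.33% and 3.19%, with medians of 0.46 and −0.14. With slide as a block, 3 were called at 72 h against sham, all lower, and 10 at 72 h against 12 h, 8 higher and 2 lower. Calls over all genes fell too. At 72 h against sham they were 591 higher and 561 lower, from 1687 and 1595 in the main fit. At 72 h against 12 h they were 699 and 526, from 1604 and 1184.

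In the hedgehog branch, 5 of 25 genes for ligands, release, reception and transduction were called lower at 12 h and 0 higher. Of all genes, 4.96% were called lower and 4.1% higher. Evc, a ciliary protein that passes on the Smoothened signal, fell by 1.64 ± 0.17 from sham at 12 h (adjusted p = 0.000172) and rose by 1.96 ± 0.17 from 12 to 72 h (adjusted p = 0.000177). Cdon, a co-receptor that works beside GAS1, fell by 1.12 ± 0.24 at 12 h (adjusted p = 0.00874) and rose by 2.12 ± 0.24 from 12 to 72 h (adjusted p = 0.000554). It was at 0.00, −0.24 and −0.25 in sham, −1.37, −1.55 and −0.95 on the 12 h arrays and 1.39, 0.63 and 0.47 on the 72 h arrays, so that its 3 groups did not overlap. Boc, the other co-receptor, differed by −0.49 at 12 h (adjusted p = 0.0259) with a fold under 2. Gli2, the main activator of the pathway, was well above background on all sham and 72 h arrays and on 0 arrays at 3 and 12 h, and was at least 1.73-fold lower at 12 h than in sham (adjusted p = 0.0245) and at least 2.31-fold higher at 72 h than at 12 h (adjusted p = 0.00748). Scube2, which helps to release hedgehog from the cells that make it, fell by 1.73 ± 0.33 at 12 h (adjusted p = 0.00425), and Scube3 by 1.1 ± 0.31 (adjusted p = 0.0287).

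The hedgehog ligands of the gut did not move as one. Ihh, the main ligand of the colonic epithelium, was at 5.55, 5.81 and 5.62 in sham. Its levels were 4.64, 5.06 and 4.83 on the 12 h arrays, then 4.43, 4.90 and 4.87 on the 72 h arrays, with differences of −0.82 (adjusted p = 0.00427) and −0.92 (adjusted p = 0.00282) that stayed under 2-fold. Dhh rose by 1.60 ± 0.27 at 72 h (adjusted p = 0.00309), and Shh was above background on 1, 1, 2 and 0 arrays of the 4 groups. Smo, which encodes Smoothened, differed from sham by −0.63 at 12 h (adjusted p = 0.0254) and by 0.27 at 72 h (adjusted p = 0.316). Of the 5 mesenchymal targets, among them the forkhead genes Foxf1 and Foxl1, 0 were called against sham at 12 or 72 h. Of all genes, 9.06% and 8.85% were called at these times. Foxf1 differed by −0.14 at 12 h and by −0.41 at 72 h (adjusted p = 0.66 and 0.116). Osr1 of the same list rose by 1.54 ± 0.25 from 12 to 72 h (adjusted p = 0.0031).

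In the BMP branch, the antagonists other than Grem1 held 4 genes called higher and 1 called lower at 72 h, out of 15. These are 26.7% and 6.67%, beside 4.55% and 4.3% of all genes. Chrdl2, a chordin-like protein that binds BMPs, rose by 2.97 ± 0.53 at 12 h (adjusted p = 0.00316) and by 4.13 ± 0.53 at 72 h (adjusted p = 0.000708). Bmper rose by 3.52 ± 0.40 and Fstl1 by 2.42 ± 0.33 at 72 h (adjusted p = 0.000371 and 0.000956), and Nog, which encodes noggin, fell by 1.04 ± 0.22 (adjusted p = 0.00816). At 12 h Chrdl1 fell by 1.86 ± 0.33 (adjusted p = 0.00312) and Fst, which encodes follistatin, by 1.53 ± 0.37 (adjusted p = 0.0146). Of the 12 other ligands, Gdf5 fell by 1.99 ± 0.23 at 12 h and by 1.51 ± 0.23 at 72 h (adjusted p = 0.000317 and 0.00188), Gdf10 fell by 3.49 ± 0.98 at 12 h (adjusted p = 0.03), and Bmp8b rose by 1.97 ± 0.17 at 12 h (adjusted p = 6.63e-05). Gdf6 and the receptor gene Bmpr1b were not well above background on any sham array and were so on 3 arrays at 72 h, at least 1.44-fold and 2.27-fold higher than in sham (adjusted p = 0.000925 and 0.0156).

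Genes that carry or report the BMP signal inside the cell were called in 2 of 16 cases at each time, all lower than sham, which is 12.5% beside the 4.96% and 4.3% of all genes called lower. Called in either direction, 9.06% and 8.85% of all genes were, so the count of 2 is near the general rate. Id4, a target of BMP signalling, fell by 2.43 ± 0.22 at 12 h and by 1.18 ± 0.22 at 72 h (adjusted p = 8.16e-05 and 0.00497), and Smad9 fell by 2.0 ± 0.24 and by 1.14 ± 0.24 (adjusted p = 0.000359 and 0.00859). Among the 10 BMP receptors besides Bmpr1b, Acvr2b fell by 1.08 ± 0.14 at 12 h (adjusted p = 0.00049) and Eng, a co-receptor of blood vessels, rose by 1.17 ± 0.22 at 72 h (adjusted p = 0.00455).

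In the Wnt branch, Rspo1, another R-spondin, had its lowest means at 3 and 12 h, as Gas1 did. It was at −0.78, −0.80 and −0.97 in sham, −3.25, −3.72 and −2.85 on the 12 h arrays and 1.51, 0.49 and −0.09 on the 72 h arrays, without overlap between these groups. It fell by 2.42 ± 0.39 at 12 h (adjusted p = 0.00173) and rose by 3.91 ± 0.39 from 12 to 72 h (adjusted p = 0.00029). Lgr5, the R-spondin receptor of crypt stem cells, fell by 1.0 ± 0.23 at 12 h (adjusted p = 0.0108), and its difference from sham at 72 h was 0.00. Of the 11 secreted Wnt inhibitors, 3 were called lower at 12 h and 4 higher at 72 h. These are 27.3% and 36.4%, beside 4.96% and 4.55% of all genes called so. Sfrp2 fell by 2.64 ± 0.82 at 12 h (adjusted p = 0.0463) and rose by 5.38 ± 0.82 from 12 to 72 h (adjusted p = 0.00217), Sfrp5 fell by 2.14 ± 0.29 at 12 h (adjusted p = 0.000692), and Frzb rose by 2.46 ± 0.45 at 72 h (adjusted p = 0.00457). Among 18 Wnt ligands, Wnt9a fell by 1.35 ± 0.25 at 12 h (adjusted p = 0.00394), and from 12 to 72 h Wnt2 rose by 1.82 ± 0.32 and Wnt5a by 1.33 ± 0.29 (adjusted p = 0.00458 and 0.0111).

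**Figure D3:**
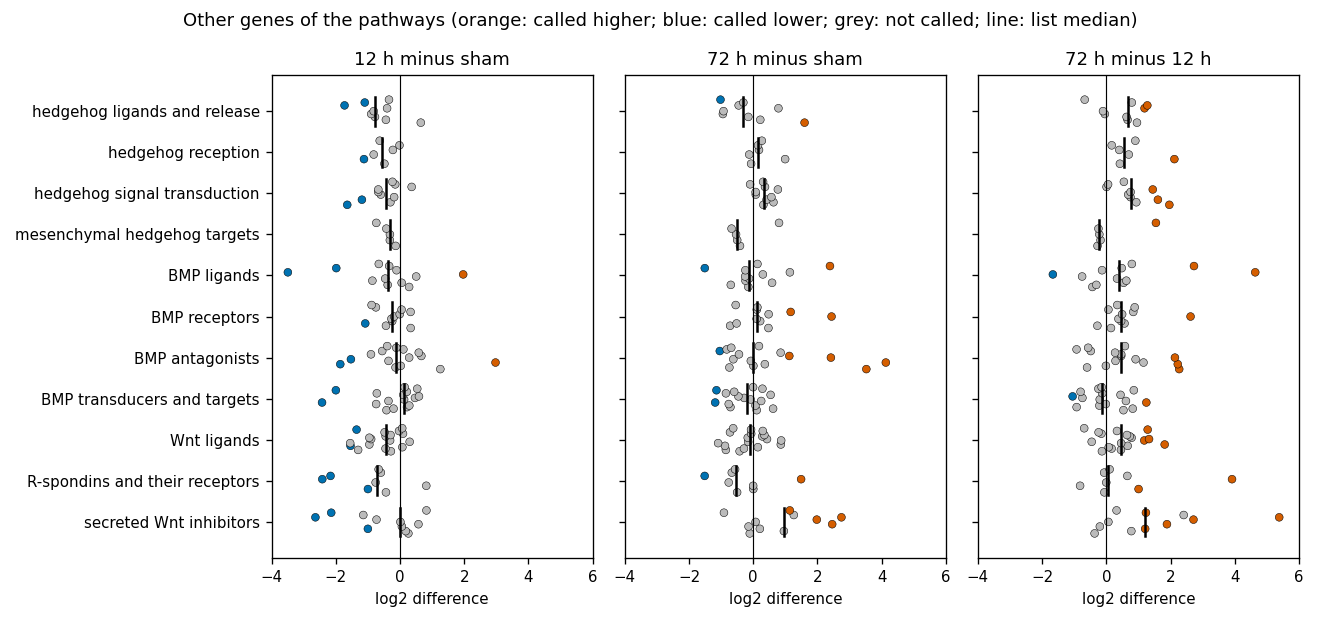
Log2 difference (x axis) of each of the 121 other pathway genes, by list (y axis), at 12 h against sham, 72 h against sham and 72 h against 12 h, with orange for genes called higher, blue for genes called lower, grey for genes not called and a black line for the median of the list. At 12 h 20 of the 22 called genes are lower, and from 12 to 72 h 25 of 27 are higher.

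Markers of the cell types in the tissue also changed, and the direction differed between cell types and times. Of all genes, 4.1% were called higher and 4.96% lower at 12 h, and 4.55% and 4.3% at 72 h. From 12 to 72 h these shares were 4.33% and 3.19%. The mesothelial markers Upk3b and Lrrn4, of the cell layer that was burnt, were above background on all sham arrays, on 0 arrays at 3 and 12 h and on all arrays at 72 h. Bnc1 of the same list was not well above background on any sham array. It was so on 3 arrays at 72 h, at least 2.62-fold higher than in sham (limma adjusted p = 0.00262). Of the 8 mesothelial markers, 3 were called lower at 12 h, 3 higher at 72 h against sham and 6 higher from 12 to 72 h. The summed linear level of the list ran from 218 to 265 in sham and from 326 to 365 at 3 h. It ran from 213 to 275 at 12 h and from 142 to 202 at 72 h. Most of that sum came from Krt19, which the epithelium also makes. The order of the 72 h arrays was the same for Gas1 (1.32, 0.47 and 0.10), Upk3b (−1.50, −2.85 and −3.70) and the fibroblast marker Col1a1 (7.58, 6.95 and 6.27). Summed levels of the fibroblast, endothelial, macrophage and fat cell lists had this order too. So did the mean log2 level of the mesothelial list, in which each gene counts alike (0.41, −0.30 and −0.80). Sums of the epithelial and neutrophil lists had neither this order nor the reverse. Sums of the mesothelial, smooth muscle, neuron and glia, and interstitial cell of Cajal lists had the reverse. Grem1 (3.12, 3.88 and 4.14) and Rspo3 (0.21, 1.02 and 1.52) also had the reverse order. What these orders share was not tested.

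Fat cell markers were uneven. Cfd was at 3.48, 4.18 and 2.88 in sham. The 3 h arrays read −7.20, 1.88 and −6.99, the 12 h arrays −7.45, 1.18 and −7.15, and the 72 h arrays 6.57, 4.77 and −7.45. Adipoq was above background on the same arrays. The summed level of the 7 fat markers ran from 17.2 to 35.2 in sham, from 4.34 to 9.55 at 3 h, from 3.05 to 9.72 at 12 h and from 2.74 to 149 at 72 h. Gas1 was at −3.43 and −3.68 on the 3 h and 12 h arrays that held Cfd and at 0.10, within the sham range, on the 72 h array that did not. Each of these values is from 1 array, and the part of fat cells in the level of Gas1 was not tested.

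The 12 fibroblast markers were above background on all arrays. Their summed level ran from 196 to 213 in sham, from 145 to 168 at 3 h, from 143 to 155 at 12 h and from 507 to 1088 at 72 h, with 5 called lower and 1 higher at 12 h and 9 higher at 72 h. All 8 smooth muscle markers were called lower at 12 h and 7 at 72 h, and their summed level went from between 557 and 596 in sham to between 176 and 279 at 12 h and 204 and 269 at 72 h. Of 10 neutrophil markers, 9 were called higher at 12 h and 6 at 72 h, and of 8 macrophage markers 2 and 7. The 10 epithelial markers held 1 called lower at 12 h and 3 at 72 h. The part of these cell types in the levels of the 9 genes was not tested.

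**Figure D4:**
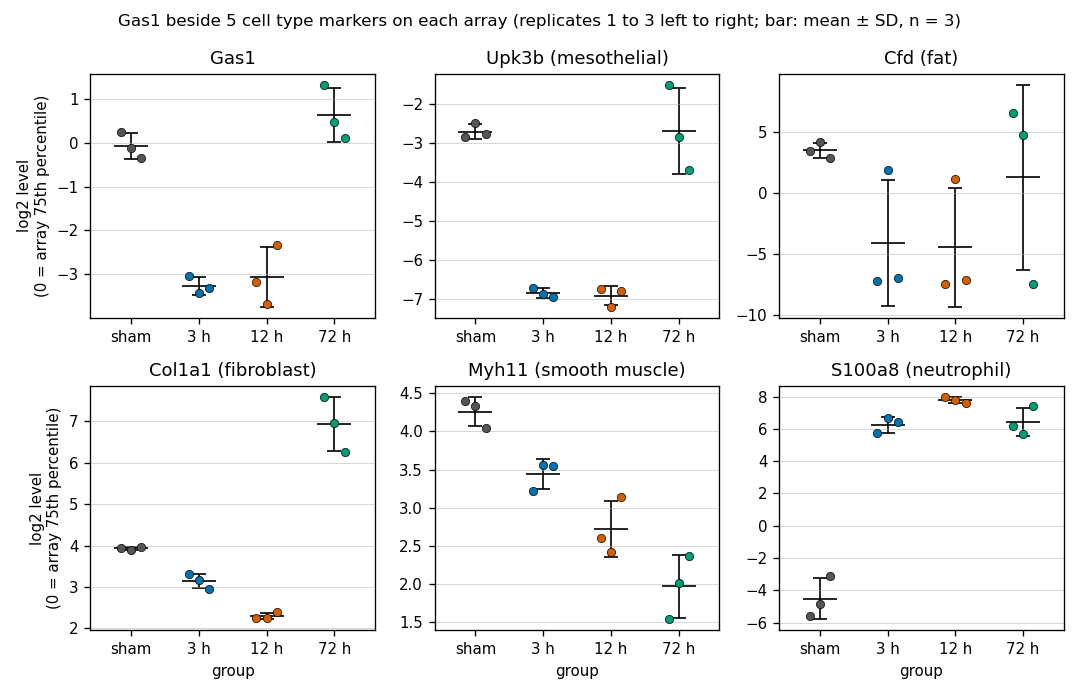
Log2 level (y axis, 0 is the 75th percentile of the array) of Gas1 and of 5 markers of other cell types on each array, by group (x axis), with points for replicates 1 to 3 from left to right and bars for the mean ± SD of 3 arrays. Upk3b is near −7 at 3 and 12 h and back in or near the sham range at 72 h, Cfd splits the arrays within each group after cauterization, and Col1a1 is highest at 72 h.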

How the data were processed

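RNA of 12 mouse ceca, described as biological triplicates, was measured on 1-colour arrays (Agilent SurePrint G3 Mouse GE v2, 8x60K). The authors deposited the scanner output, with a background-corrected intensity per spot from Feature Extraction 11.5.1.1 and probe positions of mm9, and a table of log2 values that the authors scaled to the 75th percentile. That table, used as an alternative, correlated at 0.999996 with the values computed here after centring both. Groups came from the sample labels. The 3671 control spots and 53 to 152 outlier spots per array were left out, and the spots of a probe were averaged on the log2 scale.

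Group means were fitted over all arrays in R 4.3.3 with lmFit, contrasts.fit and eBayes of limma 3.58.1, with Benjamini-Hochberg adjustment over 56605 probes. The methods name thresholds for the arrays but tie no test to them. Elsewhere they name a paired t-test between 2 groups and Dunnett's test among more, of which only the former was run here. With no statement on litters or operation days, p-values measure the spread between these arrays.

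The 9 genes and all lists were chosen with earlier results of these data known. Gas1 was tested only between 72 and 12 h, since the other comparisons share arrays with the contrast that chose it. The rule named all 9 genes with every probe, of each list the called members with the largest differences, at most 3 per list and comparison, at most 3 genes per marker list, the 5 genes most like Gas1, Gli1 and Grem1, and genes that tell the sex of mice. Boc, Ihh, Smo, Foxf1, Foxl1 and Shh are named beyond it, after their values were seen, and some called members are not named. Alternatives were quantile scaling, other probes for the 75th percentile, normexp correction (offset 50), the deposited table, a dim-probe filter, outlier spots left in, blocks for slide and for replicate number, trend and robust in eBayes, the methods' t-test, only the 2 groups compared, the mean of all probes, no fold threshold and leaving out each array.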

Additional observations from a re-analysis of the deposited data

Results flagged for a closer look

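Gas1 and Hhip were singled out because their difference from sham at 72 h differed from that at 12 h by the test of the difference itself. For Gas1 the log2 difference from sham was −2.99 at 12 h and 0.71 at 72 h, and the difference between them was 3.70 (limma adjusted p = 0.000305). For Hhip these values were −2.34, −0.82 and 1.51 (adjusted p = 0.00233). In both genes all 3 arrays at 72 h lay above all 3 at 12 h.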

How the results depend on the processing

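Main counts were 4 and 3 of the 8 tested genes (12 h and 72 h against sham), 2 of 9 (72 h against 12 h) and 2 of 8 (12 h against 3 h), the order used below, and 22, 19 and 27 of the 121 pathway genes (the first 3 of these comparisons). With normexp background correction, 2 and 1 of the 8 genes and 5 and 7 of the 121 were called at 12 h and 72 h against sham. Over all genes it also called fewer than the main fit, 825 higher and 502 lower at 12 h and 870 and 388 at 72 h. With slide as a block, 3 pathway genes were called at 72 h against sham and 10 against 12 h. Over all genes that setting called 591 higher and 561 lower at 72 h against sham, and 699 and 526 against 12 h, also fewer than the main fit. With no fold threshold, 5 of the 8 genes were called at 72 h, and 45, 43 and 52 pathway genes. The methods' t-test, run as a paired t-test on the same values, called 0 in every one of these comparisons after Benjamini-Hochberg adjustment. Over all genes it called 0 in the first 3 comparisons, and 0 higher and 1 lower at 12 h against 3 h. With 3 arrays per group this test can hardly call any gene after adjustment, so its counts of 0 say little about the listed genes. At an unadjusted p below 0.05 with a fold above 2 it called 4, 2, 2 and 2 of the tested genes and 19, 11 and 18 pathway genes. Leaving out 1 array gave 3 to 5, 2 to 3, 2 to 2 and 2 to 2 of the tested genes and 16 to 24, 12 to 22 and 24 to 32 pathway genes. The lowest 72 h count, 12, was without sham replicate 2. The cause of these shifts was not tested, except that the absence of a fold threshold widens the call by construction.

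Replicate numbers did not pair the arrays, since deviations of arrays with the same number correlated between −0.162 and 0.0866. With a replicate block, 4, 3, 2 and 2 of the tested genes and 20, 18 and 27 pathway genes were called. The authors' table and the fit with outlier spots gave the main counts. Quantile scaling called 4 of the 8 genes at 72 h and the mean of all probes 5 at 12 h. Among values of single genes, 818 alternatives counted as unchanged, 24 lost a call, 8 gained one and 12 turned the direction of a difference that was not called. Wnt2b at 12 h against sham (−0.12) was 0.0255 with quantile scaling and ran from −0.302 to 0.0343 when 1 array was left out, above 0 without 12 h replicate 1. At 12 h against 3 h it was −0.107 with normexp and ran from −0.0144 to 0.486, below 0 without 3 h replicate 1. Ptch1 at 72 h against 12 h (0.27) was −0.402 with slide as a block. At 12 h against 3 h it was −0.0606 with slide as a block and ran from −0.0606 to 0.469, below 0 without 12 h replicate 3. Gli1 at 72 h against 12 h was 0.164 with the mean of all probes and ran from −0.206 to 0.0576, above 0 without 12 h replicate 3. In the same comparison Rspo3 was −0.0403 with slide as a block and −0.106 with the mean of all probes, and ran from −0.152 to 0.499, below 0 without 72 h replicate 3. Gas1 at 12 h against 3 h, not tested, also turned, to −0.0451 with normexp and to −0.166 with slide as a block and without 12 h replicate 3, within the spread of the arrays. The 2 that moved were Gas1 at 12 h with normexp (−1.64) and at 72 h with slide as a block (−0.39). For dim probes such as Wnt2b, signal over background limits what a difference can show.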

Other observations

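Likeness to Gas1, Gli1 and Grem1 was measured over 15819 genes above background on all 12 arrays, as Pearson correlations over those arrays, which fall into 4 groups, so the values describe group courses and carry no test. The genes most like Gas1 were Rbms2 (0.994), Ttc8 (0.986), Fam171a2 (0.984), Dnmt3a (0.983) and Ndn (0.982). Their differences were smaller than those of Gas1, from −1.30 to −0.77 at 3 h and from 0.07 to 0.51 at 72 h. Ttc8 encodes a protein of the cilium, Dnmt3a a DNA methyltransferase, and Ndn a growth-suppressing protein.

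The genes most like Gli1 were 1700061G19Rik (0.971), L1td1 (0.954), Ssu2 (0.949), Cracr2a (0.947) and Sema4b (0.946), with differences from sham between −1.36 and −0.45 at 72 h. The genes most like Grem1 were Fcgr4 (0.983), Pla2g7 (0.983), Clec4a1 (0.976), Lpcat2 (0.976) and Tyrobp (0.974), whose differences from sham ran from 1.71 to 3.01 at 12 h and from 1.81 to 3.33 at 72 h. Fcgr4 and Tyrobp encode an antibody receptor and a signalling adaptor of myeloid cells. The macrophage markers Adgre1 and Csf1r differed from sham at 12 h by 1.21 (adjusted p = 0.00285) and −0.28 (adjusted p = 0.0988). Of the 8 macrophage markers, 4 lay above and 4 below sham at 12 h, with 2 called higher and 1 lower. At 72 h all 8 lay above sham, with 7 called higher. Whether such cells bear on the level of Grem1 was not tested.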
